A study of Mus musculus with 18 samples.

Results

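The expression of 10 neuronal genes of the axonal cytoskeleton and of the response to axon injury was followed in mouse substantia nigra, the part of the midbrain where dopaminergic neurons of the motor system lie. They were taken by symbol, the rule being that a row of the deposited table carries the name Nefl, Nefm, Nefh, Ina, Mapt, Map2, Tubb3, Stmn2, Gap43 or Atf3. All 10 were found among the 55269 genes that the table names. The libraries came from wild-type mice aged 3 months, 6 in each of 3 groups. Intact mice have no named treatment, AAV-GFP mice had received an adeno-associated virus (AAV) for green fluorescent protein, and AAV-SIRT3 mice one for the mitochondrial deacetylase SIRT3, about a month before sampling. The promoter, serotype and target cells of the vectors are not given in the sources used here, and no label says whether intact mice had surgery.

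An axon is held open by neurofilaments, heteropolymers of light, medium and heavy chains with alpha-internexin, and by microtubules of alpha- and beta-tubulin that carry transport between soma and terminal. Associated proteins such as tau and MAP2 bind and space the microtubules, and stathmins bind free tubulin and promote disassembly. When an axon is cut, many neurons switch on transcription factors such as ATF3 and JUN, change their filament genes and produce growth cone proteins such as GAP43 and stathmin-2.

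With all libraries in limma, a linear model fitted across all genes, the genes that passed did so between AAV-SIRT3 and intact libraries. In that comparison Stmn2 and Tubb3 were higher by 13.1% and 11.5%, and Map2 was lower by 14.3% (change of the mean, n = 6 libraries in each group). Of all genes tested 21.7% passed there, so the share of the 10 was near the background. The calls on Tubb3 and Map2 were lost in some of the alternative fits described below, and that on Stmn2 held in each. None of the 10 genes passed in limma between AAV-SIRT3 and AAV-GFP or between AAV-GFP and intact libraries, although DESeq2 called Map2 in the latter (−0.21 on the log2 scale, adjusted p = 0.0206). The filament subunits Nefl, Nefm, Nefh and Ina and the tau gene Mapt passed in no comparison of all libraries in limma.

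Levels are normalised reads, that is, reads assigned to a gene divided by a size factor for the library. Assigned reads were 47182420 to 64728400 per library, so that the 9 genes other than Atf3 had at least 13769 reads in each library and Atf3 had 21 to 65. The labels call the libraries of a group replicates and describe independent preparation per sample, but do not tie each library to 1 animal. Sirt3, the gene delivered, was at 1801 to 2041 normalised reads in AAV-SIRT3, 1684 to 1936 in AAV-GFP and 1733 to 1920 in intact libraries. These ranges overlapped, and limma gave a log2 fold change of 0.13 (SE 0.042) against AAV-GFP (adjusted p = 0.183). The sources used here do not say whether transcripts of the vector are counted on this row, so the row checks the labels only weakly. Summed over the 9 dopaminergic markers of a list that includes Th and Slc6a3, levels were 40509 to 55391 in intact, 35793 to 46506 in AAV-GFP and 41449 to 48947 in AAV-SIRT3 libraries. The tissue was not sorted, so fewer cells of a type and less RNA per cell cannot be told apart.

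Thalamic markers set 3 intact libraries apart. Prkcd, a kinase gene high in thalamus, was at 7651, 7763 and 9445 normalised reads in intact replicates 1, 3 and 5 and at 18060.2 or more in the other 15 libraries. Intact replicate 1 also had the highest sum of cholinergic motor neuron markers, 3225 against a median of 1789 for its group. Counts of calls against intact libraries among the 10 genes and the gene lists are therefore given with and without these 3 libraries. Leaving them out also makes the intact group smaller, so a call can be lost although the fold change stays. Choroid plexus markers set 2 more apart, with the transport gene Ttr at 44471 in intact replicate 2 and 39158 in AAV-GFP replicate 5 and at most 4783 in the other libraries. Without either of these, the same number of the 10 genes passed as with all libraries (0, 0 and 3 in the order AAV-SIRT3 against AAV-GFP, AAV-GFP against intact, AAV-SIRT3 against intact). Markers of the anterior pituitary summed to 738 to 5390 in intact, 251 to 685 in AAV-GFP and 239 to 802 in AAV-SIRT3 libraries, and 3 of 5 (Gh, Pomc and Prl) fell in each vector group against intact. Microglial markers summed to 11345 to 13093, 12413 to 14954 and 12165 to 13785 in the same order, and 6 of 10 rose in each vector group. Over all genes 0.823% rose and 1.02% fell in AAV-GFP against intact, and 11.3% and 10.3% in AAV-SIRT3 against intact. Without intact replicates 1, 3 and 5, 0 of the pituitary markers fell in AAV-GFP and 1 in AAV-SIRT3, and 2 of the microglial markers rose in each. In all, 10 genes passed then for AAV-GFP and 1686 for AAV-SIRT3. None of these markers was at 0 in all libraries, and their part in the results was not tested.

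Promoters are shown for genes that carry the results. Of the 10 genes, 4 (Map2, Atf3, Tubb3 and Ina) are in the RefSeq promoter table used (build GRCm38.p6), which gives 250 bases before and 50 after the gene start that RefSeq annotates. Map2 is shown because it was the gene that fell, Tubb3 as one that rose, and Atf3 as the injury-response factor. The windows are chr1:66175079-66175378 on the plus strand for Map2, chr8:123411303-123411602 on the plus strand for Tubb3 and chr1:191183284-191183583 on the minus strand for Atf3. For Atf3 that start (191183333) lies 34.7 kb inside the longer gene of GENCODE, which begins at 191218039. Letters run 5′ to 3′ in the direction of the gene, and capitals mark GGGCGG and TGACG, searched on both strands (CCGCCC and CGTCA on the other one), with overlapping matches joined.
Map2: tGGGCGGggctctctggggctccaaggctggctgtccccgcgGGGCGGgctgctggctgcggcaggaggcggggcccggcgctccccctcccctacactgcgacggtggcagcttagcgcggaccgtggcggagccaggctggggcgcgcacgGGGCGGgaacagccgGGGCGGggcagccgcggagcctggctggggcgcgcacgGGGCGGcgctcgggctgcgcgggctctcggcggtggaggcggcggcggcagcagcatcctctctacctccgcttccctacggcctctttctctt
Tubb3: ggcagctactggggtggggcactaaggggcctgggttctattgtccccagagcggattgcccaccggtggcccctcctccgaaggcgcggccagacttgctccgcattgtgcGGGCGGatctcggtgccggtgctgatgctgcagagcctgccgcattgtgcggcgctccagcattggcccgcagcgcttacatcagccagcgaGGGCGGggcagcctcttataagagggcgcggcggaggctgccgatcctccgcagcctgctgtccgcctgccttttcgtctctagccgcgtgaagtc
Atf3: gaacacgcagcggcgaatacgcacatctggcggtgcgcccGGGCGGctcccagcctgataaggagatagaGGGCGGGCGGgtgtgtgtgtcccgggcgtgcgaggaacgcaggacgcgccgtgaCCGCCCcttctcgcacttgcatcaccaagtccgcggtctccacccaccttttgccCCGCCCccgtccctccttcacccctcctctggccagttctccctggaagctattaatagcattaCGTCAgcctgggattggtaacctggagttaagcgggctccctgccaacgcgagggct
The window of Map2 held 5 matches to GGGCGG, that of Tubb3 2 and that of Atf3 5. GGGCGG was found in 35.7% of the 32851 promoter windows of the table. Atf3 alone of these windows held TGACG, with 1 match, a motif present in 20.8% of all windows. G and C made up 77.7% of the Map2 window, 67.3% of that of Tubb3 and 64.7% of that of Atf3, against a median of 52.7% over the table. The matches describe these letters and are not evidence of binding.

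The neurofilament genes came first among the structural genes. Nefl, the light chain on which the other chains assemble, lies on chromosome 14 at 68083863 to 68089095 (plus strand, 3.38 kb of exons; GRCm38, GENCODE M21, as for all positions given). Its lowest, median and highest levels were 21444, 24493 and 31175 normalised reads in intact, 23096, 25065 and 27327 in AAV-GFP, and 21848, 27189 and 28645 in AAV-SIRT3 libraries. The groups overlapped, with the highest value in intact replicate 1. Nefm, the medium chain, is at 68082590 to 68124846 on the minus strand, and its exons overlap those of Nefl. The strand setting of the counting is not given in the sources used here, so reads in the overlap may have been split or dropped.

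Nefm ran from 21437 through a median of 23406 to 37346 in intact libraries, from 21745 through 24039 to 28990.5 in AAV-GFP, and from 21347 through 25582 to 26940.0 in AAV-SIRT3. Nefh, the heavy chain (chromosome 11, 4938754 to 4948064, minus strand), ran from 14279 through 16099 to 24759, from 15275 through 17737 to 19489.9, and from 14803 through 18380.1 to 19292 in the same groups. For each of the 3 chains intact replicate 1 was the highest of its group and AAV-SIRT3 replicate 5 the lowest of its group, and the ranges of the 3 groups overlapped.

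Ina encodes alpha-internexin, the fourth neuronal filament subunit of the central nervous system. It lies on chromosome 19 at 47014698 to 47025327 (plus strand), where an exon overlaps Nt5c2 on the other strand. Its levels were 15854, 17304 and 20041 (lowest, median, highest) in intact, 16072, 18160.0 and 19154 in AAV-GFP, and 17341, 19115 and 19886 in AAV-SIRT3 libraries. AAV-SIRT3 was above intact in 27 of the 36 pairs of libraries.

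No filament gene passed in limma. Between AAV-SIRT3 and AAV-GFP the log2 fold change was 0.06 for Nefl (95% interval −0.11 to 0.22, adjusted p = 0.772), 0.03 for Nefm (−0.18 to 0.24), 0.01 for Nefh (−0.19 to 0.22) and 0.07 for Ina (−0.04 to 0.18, adjusted p = 0.525). Between AAV-SIRT3 and intact it was 0.08 for Nefl (−0.09 to 0.24), −0.03 for Nefm (−0.24 to 0.18), 0.03 for Nefh (−0.17 to 0.24) and 0.11 for Ina (limma adjusted p = 0.158). These intervals leave room for changes of up to about 0.2 in either direction for the medium and heavy chains. Without intact replicate 1, Nefm turned to 0.08 against intact, and Ina passed at 0.14 (adjusted p = 0.0394, limma).

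**Figure D1:**
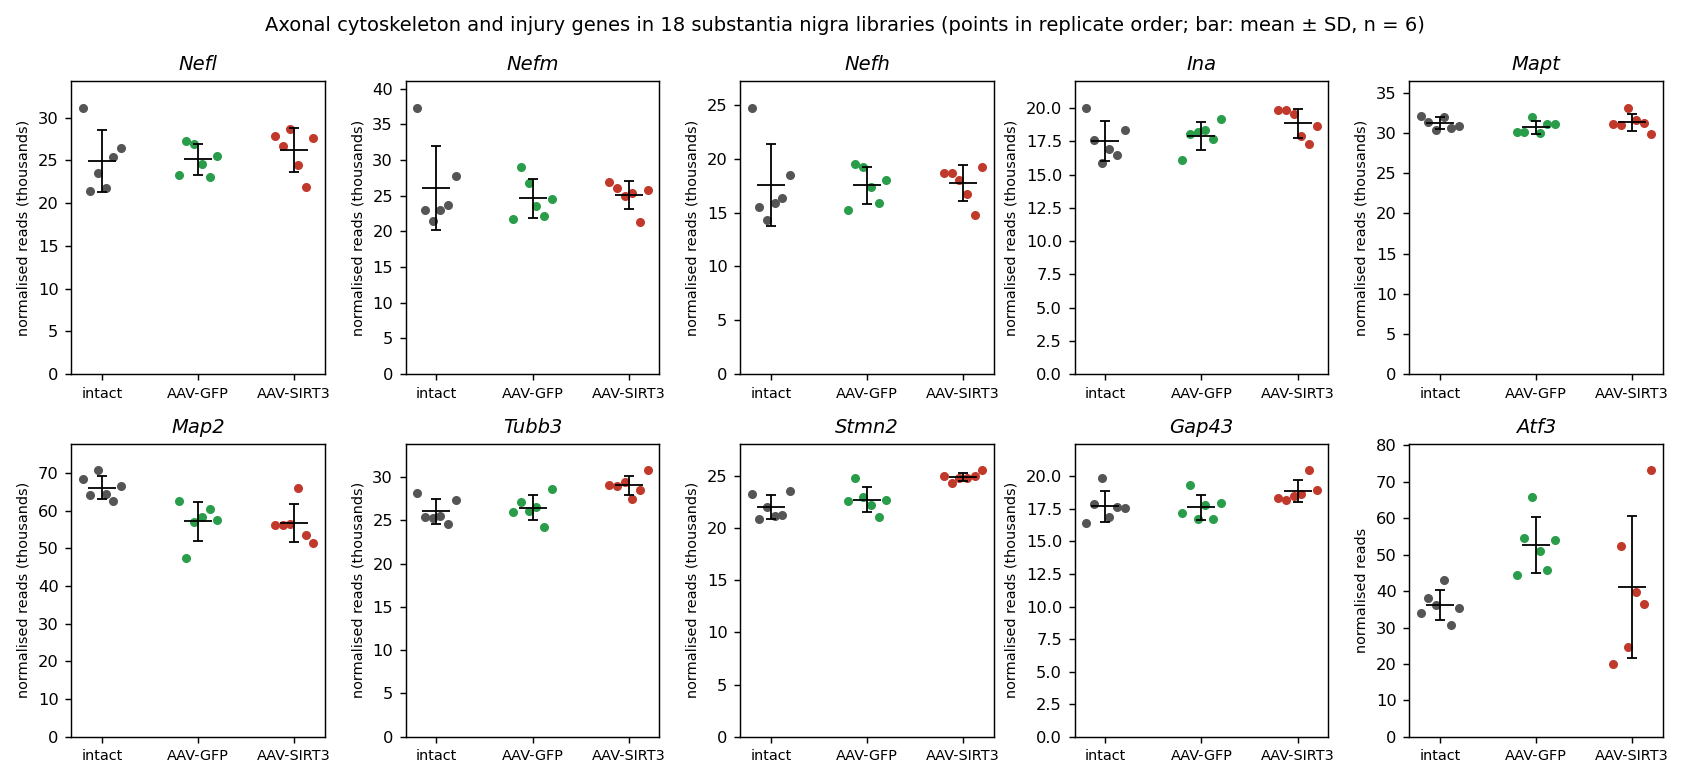
Normalised reads of each of the 10 genes (vertical axes from 0, divided by 1000 except for Atf3) in intact, AAV-GFP and AAV-SIRT3 libraries, with 1 point per library in replicate order and the mean ± SD (n = 6). Stmn2 lies between 24322 and 25539 in AAV-SIRT3, above every intact library, Map2 is lower in every AAV-GFP library than in any intact one, and intact replicate 1 is the highest of its group for Nefl, Nefm and Nefh.

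Of the microtubule-binding proteins, Map2 differed and tau did not pass. Mapt encodes tau, which is concentrated in axons (chromosome 11, 104231390 to 104332090, plus strand). It had the tightest levels of the 10 genes in intact and AAV-GFP libraries, 31239 ± 721 and 30726 ± 816 (SD, n = 6), and was at 31326 ± 1053 in AAV-SIRT3. The log2 fold change of Mapt was 0.03 between AAV-SIRT3 and AAV-GFP (95% interval −0.04 to 0.09) and 0.00 between AAV-SIRT3 and intact (−0.06 to 0.07, limma adjusted p = 0.948).

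Map2, whose protein is chiefly found in dendrites and cell bodies, lies on chromosome 1 at 66175273 to 66442583 (plus strand) and has the longest exon sum of the 10 genes, 16.4 kb. It was at 62578, 65369.5 and 70645 normalised reads (lowest, median, highest) in intact, 47464, 57899 and 62435 in AAV-GFP, and 51270.0, 56168 and 66072 in AAV-SIRT3 libraries. Every AAV-GFP library was below every intact one, and 5 of 6 AAV-SIRT3 libraries were, the exception being AAV-SIRT3 replicate 4. Map2 fell in AAV-SIRT3 against intact by 0.23 on the log2 scale (SE 0.061, limma adjusted p = 0.0120), and 3 of 36 pairs of libraries went the other way. For AAV-GFP against intact the log2 fold change was −0.21 (SE 0.061) and did not pass (limma adjusted p = 0.0681, 0.0206 with DESeq2). Genes whose groups did not overlap made up 1.86% of all genes tested in that comparison. These comparisons share the intact libraries. Between the vectors the log2 fold change of Map2 was −0.01 (95% interval −0.14 to 0.11).

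The call on Map2 against intact was lost in 3 of the alternatives run. It was −0.19 (adjusted p = 0.139) with the thalamic markers as a covariate in limma, −0.20 (adjusted p = 0.0965) without intact replicates 1, 3 and 5, and −0.07 (adjusted p = 0.208) after the trend of fold change with exon length over all genes was removed. In AAV-GFP against intact, Map2 passed without AAV-GFP replicate 1 (−0.24, adjusted p = 0.0383) and without AAV-SIRT3 replicate 4 (−0.21, adjusted p = 0.0431), both in limma. Without AAV-GFP replicate 1, 686 genes passed in place of 358, so the gain of a call was not particular to Map2. AAV-SIRT3 replicate 4 is in neither group compared, and the fold change was unchanged without it.

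Tubb3 encodes the beta-tubulin of neurons (chromosome 8, 123411424 to 123422015, plus strand, 1.87 kb of exons). The gene model Gm20388 overlaps it on the same strand, but none of its exons overlaps an exon of Tubb3. Levels were 24521, 25424 and 28195 in intact, 24235, 26323 and 28586 in AAV-GFP, and 27409.9, 29001 and 30756 in AAV-SIRT3 libraries (lowest, median, highest). AAV-SIRT3 was above intact in 35 of 36 pairs and above AAV-GFP in 34. Tubb3 rose in AAV-SIRT3 against intact by a log2 fold change of 0.16 (SE 0.042, limma adjusted p = 0.0113). Against AAV-GFP it was 0.14 (SE 0.042) and did not pass (limma adjusted p = 0.157). The call against intact was lost with the thalamic covariate (0.16, adjusted p = 0.0882), without intact replicates 1, 3 and 5 (0.15, adjusted p = 0.0559) and after removal of the length trend (0.07, adjusted p = 0.220), all in limma.

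Stmn2, or stathmin-2, binds tubulin in growing axons and supports their regeneration (chromosome 3, 8509360 to 8561606, plus strand, 5.60 kb of exons). Its lowest, median and highest levels were 20881, 21655 and 23577 in intact, 21063, 22670.5 and 24799 in AAV-GFP, and 24322, 24917 and 25539 in AAV-SIRT3 libraries. AAV-SIRT3 libraries were tightly grouped, with a coefficient of variation of 1.59% against 5.22% in intact and 5.33% in AAV-GFP, and all lay above all intact libraries. In that comparison 9.33% of all genes tested had groups that did not overlap. Stmn2 rose against intact by a log2 fold change of 0.18 (SE 0.039, limma adjusted p = 0.00329). Its call held in each alternative run, with log2 fold changes of 0.15 to 0.20, among them 0.20 (adjusted p = 0.0277) with the thalamic covariate and 0.20 (adjusted p = 0.0027) after removal of the length trend in limma. Against AAV-GFP, Stmn2 was higher in 34 of 36 pairs, with a log2 fold change of 0.13 (SE 0.039) that did not pass (limma adjusted p = 0.134). Without AAV-GFP replicate 2 the log2 fold change was 0.16 and passed (adjusted p = 0.0222, limma). In that fit 861 genes passed in place of 22, so the gain of a call was not particular to Stmn2. Leaving out each library in turn gave 0.11 to 0.16 for Stmn2 in this comparison.

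Gap43, a membrane phosphoprotein of growth cones and presynaptic terminals (chromosome 16, 42248442 to 42340651, minus strand), was at 17692 ± 1179 (intact), 17605 ± 967 (AAV-GFP) and 18850 ± 825 (AAV-SIRT3) normalised reads (mean ± SD, n = 6). AAV-SIRT3 was higher than intact in 31 of 36 pairs and than AAV-GFP in 31 as well, and the groups overlapped. The log2 fold changes of 0.09 (SE 0.045, adjusted p = 0.143) and 0.10 (SE 0.045, adjusted p = 0.298) did not pass in limma. Against intact, Gap43 passed without intact replicate 3 (0.13, adjusted p = 0.0408) and with the pan-neuronal markers as a covariate (0.13, adjusted p = 0.0441).

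Atf3, a transcription factor that damaged neurons induce strongly, was the gene of lowest level (chromosome 1, 191170296 to 191218039, minus strand). It was at 30.8, 35.8 and 43.0 normalised reads in intact, 44.4, 52.5 and 65.7 in AAV-GFP, and 20.0, 38.1 and 73.1 in AAV-SIRT3 libraries (lowest, median, highest). Each AAV-GFP library was above each intact library, and 1.86% of all genes tested had groups without overlap in that comparison. AAV-SIRT3 libraries spread below and above both groups. The coefficient of variation was 47.3% in AAV-SIRT3, against 11.3% in intact and 14.6% in AAV-GFP, where counting error by itself gives 13.8% to 16.7%. Atf3 did not pass in limma, at 0.52 for AAV-GFP against intact (SE 0.237, adjusted p = 0.233), −0.46 for AAV-SIRT3 against AAV-GFP (SE 0.237, adjusted p = 0.355) and 0.06 for AAV-SIRT3 against intact (adjusted p = 0.889). These are differences of mean log2(value + 1), where the added 1 shrinks changes slightly at so low a level. Arithmetic means of the normalised reads weight high libraries more than means of logs do. They changed by 45.2%, −21.9% and 13.5% in the same order.

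**Figure D2:**
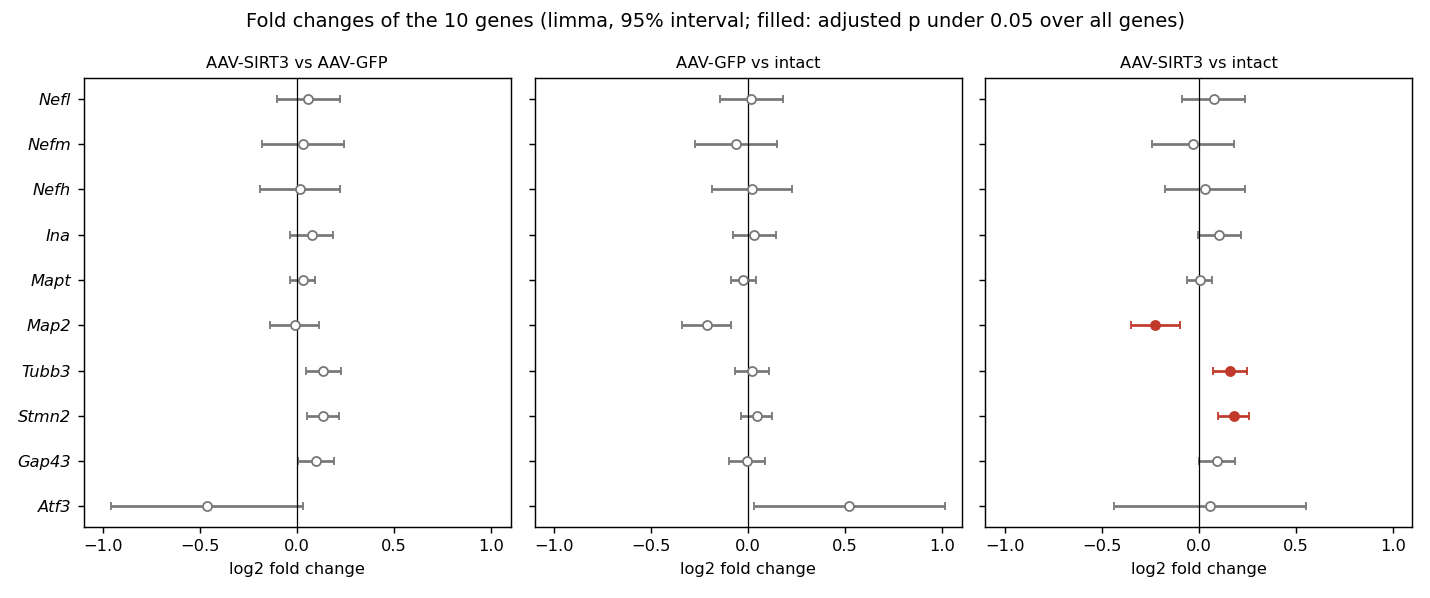
Log2 fold change of each of the 10 genes (horizontal axis) in the 3 comparisons, from limma with 95% intervals, filled where the adjusted p is under 0.05 over all genes tested. Filled points stand in AAV-SIRT3 against intact alone, for Map2 (−0.23), Tubb3 (0.16) and Stmn2 (0.18), and the interval of Atf3 is the widest in each panel.

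Counted together, 3 of the 10 genes passed between AAV-SIRT3 and intact libraries (2 higher, 1 lower), where 21.7% of the 19442 genes tested passed (11.3% higher, 10.3% lower). That share of the 10 is near the background. Between AAV-SIRT3 and AAV-GFP 0 of 10 passed in limma, against 0.113% of all genes (0.036% higher, 0.0772% lower), and 3 (Tubb3, Stmn2 and Gap43) had an unadjusted p under 0.05, against 15.2%. For none of the 10 were these groups free of overlap, as they were for 0.751% of all genes. Between AAV-GFP and intact 0 of 10 passed in limma, against 1.84% of all genes (0.823% higher, 1.02% lower), and 2 (Map2 and Atf3) had an unadjusted p under 0.05, against 19.1%. These 2 genes had groups without overlap there, as did 1.86% of all genes. With edgeR the counts were 0, 0 and 3, and with DESeq2 0, 1 and 3, in the order AAV-SIRT3 against AAV-GFP, AAV-GFP against intact and AAV-SIRT3 against intact. Over all genes edgeR called 24, 361 and 4086 and DESeq2 309, 999 and 4618 in that order. The median log2 fold change of the 10 genes was 0.04, 0.02 and 0.07 in that order, against −0.0041, 0.00074 and −0.0049 over all genes. Of the 10, 3 passed in AAV-SIRT3 against intact with all libraries and 1 (Stmn2) without intact replicates 1, 3 and 5, where 1686 of the 19442 genes passed. That share of the 10 is again near the background. The sum of 10 thalamic markers was 56383 to 101322 in intact, 87068 to 99032 in AAV-GFP and 84801 to 108574 in AAV-SIRT3 libraries. Of these markers 8 of 10 rose in AAV-SIRT3 against intact and 2 in AAV-GFP against intact, and none was at 0 in all libraries. These counts were 1 and 0 without intact replicates 1, 3 and 5. Of 12 pan-neuronal markers 2 (Thy1 and Uchl1) rose in AAV-SIRT3 against intact, and 1 without those libraries, and their sum was 426184 to 492795 in intact and 448777 to 496692 in AAV-SIRT3 libraries.

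Levels per kilobase of exon allow the genes to be ordered. In intact libraries Tubb3 came first with 13931 ± 763 normalised reads per kb, followed by Gap43 with 11616 ± 774, Nefl with 7389 ± 1069 and Ina with 5420 ± 464 (SD, n = 6, the exon sum counting every annotated exon of the gene). Nefm (4508), Nefh (4393), Mapt (4148), Map2 (4017) and Stmn2 (3934) formed a tier in which each overlapped the next, and Ina overlapped Nefm through intact replicate 1. Atf3 was at 16.8 per kb. The first 4 places were the same in AAV-GFP and AAV-SIRT3 libraries, while Map2 was in 9th place there, at 3475 and 3442 per kb with a range that still overlapped the next gene above it. Stmn2 stood in 9th place in intact and in 5th place, at 4449 per kb, in AAV-SIRT3 libraries, still overlapping Nefh.

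Ratios between genes of 1 library do not depend on its size factor. Nefm to Nefl was 1.04 ± 0.105 (intact), 0.978 ± 0.0450 (AAV-GFP) and 0.960 ± 0.0559 (AAV-SIRT3), each with the SD over 6 libraries, and no difference in it passed. The ratio of Mapt to Map2 was 0.474 ± 0.0249 (intact), 0.541 ± 0.0532 (AAV-GFP) and 0.556 ± 0.0412 (AAV-SIRT3). It was higher than intact in 33 of 36 pairs for each vector, by 0.19 and 0.23 on the log2 scale (exact two-sided permutation p = 0.00866 each), which did not pass after adjustment over the 15 tests made on 5 ratios (adjusted p = 0.0649 each). For Nefh to Nefl, Ina to Nefl and Stmn2 to Gap43 the adjusted p in the same exact tests was 0.506 or higher.

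Within groups the filament genes varied together. Taken as deviations of log2 levels from the group mean over the 18 libraries, Nefm and Nefh had Pearson r = 0.97 and Spearman rho = 0.97 (within-group permutation p = 1e-05 for each, which is the lowest value possible with 100000 resamples, and adjusted p = 0.00045 over the 45 pairs of the 10 genes). Without the 2 libraries farthest out in Nefm, r was 0.93, and within intact, AAV-GFP and AAV-SIRT3 libraries it was 1.00, 0.95 and 0.90. Nefl and Nefm had r = 0.87 and rho = 0.82 (adjusted permutation p = 0.00135 and 0.0039), with r = 0.77 without the 2 farthest libraries. Nefl and Nefh had r = 0.90 and rho = 0.84, (adjusted permutation p = 0.00112 and 0.00247), and Nefh and Ina r = 0.85 and rho = 0.74 (adjusted permutation p = 0.00135 and 0.0119). Without the 2 farthest libraries r was 0.82 and 0.74 for these pairs. Tubb3 varied with all 4 filament genes, with r = 0.64, 0.63, 0.71 and 0.67 (adjusted permutation p = 0.0289, 0.032, 0.0146 and 0.0289) and rho = 0.66, 0.64, 0.75 and 0.73 (0.0346, 0.0451, 0.0119 and 0.0128) for Nefl, Nefm, Nefh and Ina. Without the 2 farthest libraries these r were 0.56, 0.50, 0.62 and 0.60. In the same order they were 0.75, 0.89, 0.87 and 0.90 within intact and 0.57, 0.46, 0.55 and 0.53 within AAV-GFP libraries. Within AAV-SIRT3 libraries they were 0.61, 0.24, 0.63 and 0.41, and these differences between groups were not tested. Stmn2 had r = 0.62 with Nefl and 0.67 with Nefm (adjusted permutation p = 0.0289 each), for which rho did not pass (0.58 and 0.60, adjusted p = 0.0675 and 0.0726), and r was 0.67 and 0.72 without the 2 farthest libraries. Within intact, AAV-GFP and AAV-SIRT3 libraries r of Stmn2 was 0.81, 0.81 and −0.03 with Nefl. With Nefm it was 0.74, 0.84 and −0.14, and these differences between groups were not tested. Map2 did not follow the filament genes over all libraries. With Nefl it had r = −0.18 and rho = −0.13 (adjusted permutation p = 0.587 and 0.791). Its r with Nefl, Nefm and Nefh was −0.82, −0.92 and −0.80 within the 6 AAV-GFP libraries, 0.37, 0.26 and 0.20 within the intact and −0.15, 0.22 and −0.18 within the AAV-SIRT3 libraries, and these differences between groups were not tested. Each point in these relations shares its library, size factor and dissection with the other gene.

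**Figure D3:**
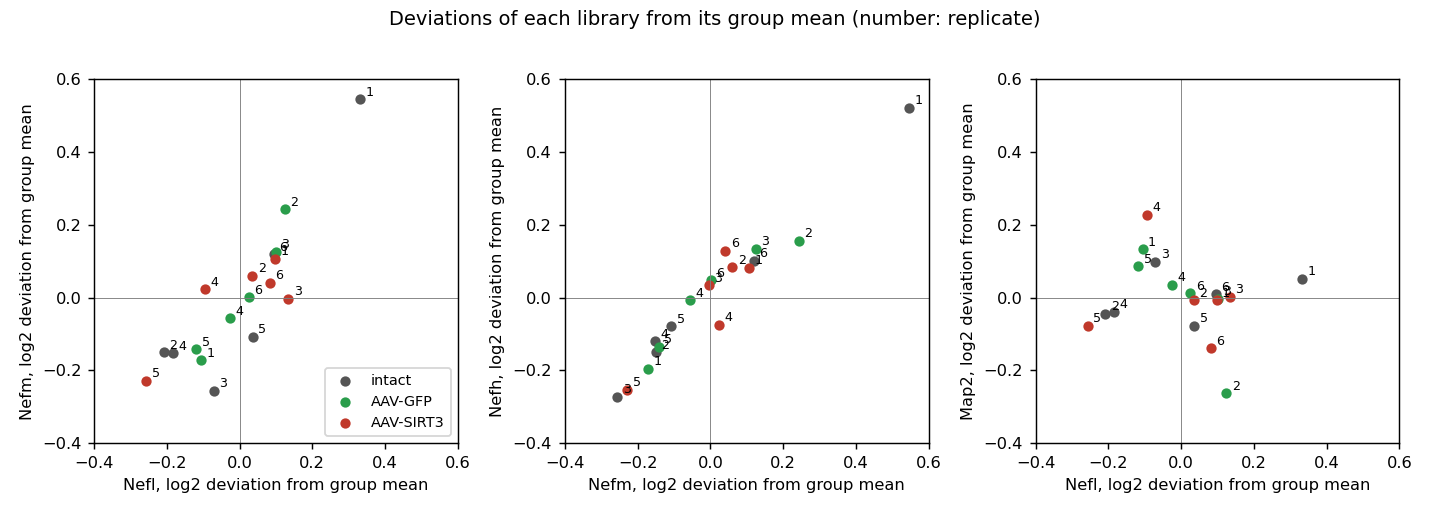
Log2 deviation of each of 18 libraries from its group mean, for Nefm against Nefl, Nefh against Nefm and Map2 against Nefl (left to right, numbers give the replicate). Nefm and Nefh lie on a line (r = 0.97), intact replicate 1 is the farthest point for the filament genes, and Map2 has no such line with Nefl (r = −0.18).

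The genes closest to each of the 10 were sought by the same deviations among 15235 genes with a mean of at least 50. Vamp1, a synaptic vesicle fusion protein, came first for Nefl (r = 0.94) and for Nefh (r = 0.94), and Pygm, muscle glycogen phosphorylase, came first for Nefm (r = 0.95). Kcnab2, a potassium channel subunit, came first for Ina (r = 0.91). For Map2 the first were Pds5b, Tcf20 and Pcdh17 (r = 0.96, 0.95 and 0.95), and for Stmn2 the proteasome subunits Psma6 and Psmc2 and the malate dehydrogenase gene Mdh1 (each r = 0.87). The highest r was 0.82 for Mapt (Fam122b), 0.90 for Tubb3 (Fbxo9), 0.89 for Gap43 (Trpv2) and 0.80 for Atf3 (Med29). All these r are over 18 libraries and were chosen as the highest of many.

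Of 122 further genes tested in lists arranged by role, 37 passed between AAV-SIRT3 and intact libraries (15 higher, 22 lower), 4 between AAV-GFP and intact, and 0 between AAV-SIRT3 and AAV-GFP in limma (23 had an unadjusted p under 0.05, edgeR called 0 and DESeq2 called 3). The shares against intact were 30.3% for AAV-SIRT3 (12.3% higher, 18% lower), beside 21.7% of all genes (11.3% higher, 10.3% lower), and 3.28% for AAV-GFP, beside 1.84%. Without intact replicates 1, 3 and 5, 16 of the 37 still passed and none of the other list genes did (4 higher, 12 lower), where 8.67% of all genes passed, and 0 of the 4. With the thalamic covariate 12 of the 37 and 1 of the 4 did. The naming rule, by size of change, gave Dcx, Macf1, Jun, Dst, Gprin3, Stmn1, Nes and Tnfrsf12a against intact for AAV-SIRT3, and Gfap, Tnfrsf12a, Dcx and Dync1h1 for AAV-GFP. Other genes are named below to complete small counts and were chosen after their values were seen.

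The stathmins rose. All 3 further members passed in AAV-SIRT3 against intact, Stmn1 at 0.32 (SE 0.048, limma adjusted p = 0.000532), Stmn3 at 0.27 and Stmn4 at 0.28, beside 0.18 for Stmn2. Of 12 other tubulin genes 4 rose (Tuba1a 0.12, Tubb2a 0.13, Tubb4b 0.12 and Tubg1 0.13) and none fell, beside 0.16 for Tubb3. Of 14 tau kinase and phosphatase genes 4 rose, namely Cdk5 (0.20), its activators Cdk5r1 (0.28) and Cdk5r2 (0.30), and the phosphatase subunit Ppp2ca (0.15). These shares stand against 11.3% of all genes that rose in the comparison. The calls that held without intact replicates 1, 3 and 5 were those of Stmn1 (0.30), Stmn3 (0.27), Cdk5 (0.20) and Cdk5r2 (0.31). No tubulin of the list passed then, with Tuba1a at 0.13 (SE 0.052, and 0.042 with all libraries) and Tubb2a at 0.11. Nor did Stmn4 (0.19, adjusted p = 0.0931 in limma). In AAV-GFP against intact the 3 further stathmins were also higher (median 0.16). Each had an unadjusted p under 0.05 in limma, against 19.1% of all genes, and none passed. Of the 12 tubulins 0 and of the 14 tau kinase and phosphatase genes 6 had such a p there.

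Large linker proteins fell. Of 8 filament partners 5 fell and none rose, among them the cross-linkers of microtubules and actin Macf1 (−0.37, SE 0.061, limma adjusted p = 0.000701) and Dst (−0.33, SE 0.064), with Nes (nestin, −0.31) and Plec (plectin, −0.13). Of 21 microtubule-associated proteins 4 fell and none rose, with Dcx (doublecortin) at −0.38 (SE 0.068, limma adjusted p = 0.00117), Map1b at −0.29, Clasp1 at −0.16 and Camsap2 at −0.13, beside −0.23 for Map2. Of 16 transport motor genes 4 fell and none rose, among them the dynein heavy chain Dync1h1 (−0.25) with Kif3a, Kif1b and Kif3c. Of 13 growth cone and membrane cortex genes 4 fell and none rose, namely Gprin3 (−0.32), the ankyrins Ank3 (−0.30) and Ank2 (−0.23), and Nfasc (−0.16), beside 0.09 for Gap43. Over all genes 10.3% fell. Without intact replicates 1, 3 and 5, 4 of the 5 filament partners still fell, among them Macf1 (−0.38), Dst (−0.31) and Plec (−0.14), while Nes was at −0.33 and did not pass (adjusted p = 0.136, limma). In the other lists Dcx (−0.38), Map1b (−0.27), Ank3 (−0.29), Nfasc (−0.19) and Dync1h1 (−0.23) fell then, and Clasp1, Camsap2, Kif3a, Kif1b, Kif3c, Gprin3 and Ank2 did not pass. Between AAV-GFP and intact 6 of 8 filament partners and 7 of 21 microtubule-associated genes had an unadjusted p under 0.05 in limma. So did 5 of 16 motor and 5 of 13 cortex genes, each in either direction, beside 19.1% of all genes.

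The injury list was close to the background. Of its 35 genes tested 4 rose and 5 fell between AAV-SIRT3 and intact, or 11.4% and 14.3%, beside 11.3% and 10.3% of all genes. Higher were Tnfrsf12a (0.30), the receptor of the cytokine TWEAK, Ddit3 (0.24), Crem (0.20) and the axon survival enzyme Nmnat2 (0.15). Lower were Jun (−0.33, SE 0.071, limma adjusted p = 0.00311), Klf7 (−0.25), Il6st (−0.23), Adcyap1 (−0.22) and Flrt3 (−0.14). Without intact replicates 1, 3 and 5 Jun (−0.37), Klf7 (−0.30) and Il6st (−0.25) fell and none of the 4 higher genes passed. Jun was lower in AAV-SIRT3 than AAV-GFP by a log2 difference of −0.30 that did not pass (limma adjusted p = 0.0995). Between AAV-GFP and intact, Tnfrsf12a rose (0.45, adjusted p = 0.0171) and so did the astrocyte filament gene Gfap (0.50, adjusted p = 0.0388), while Dcx (−0.28, adjusted p = 0.0359) and Dync1h1 (−0.20, adjusted p = 0.0209) fell, all in limma. None of these 4 passed without intact replicates 1, 3 and 5 (0.37, 0.63, −0.28 and −0.18, adjusted p = 0.262, 0.123, 0.22 and 0.175). Without AAV-GFP replicate 5, 2 list genes passed in this comparison. Tnfrsf12a alone passed in a fit of the 2 groups by themselves, and Gfap alone with the thalamic covariate (0.74, adjusted p = 0.0238). Of the 8 reactive astrocyte markers other than Gfap, 2 (C3 and Serpina3n) rose in AAV-GFP against intact, and 1 without the 3 intact libraries. The 8 summed to 6222 to 12937 in AAV-GFP, 5547 to 7264 in intact and 5038 to 7575 in AAV-SIRT3 libraries, and none was at 0 in all libraries. Their part in the result was not tested.

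**Figure D4:**
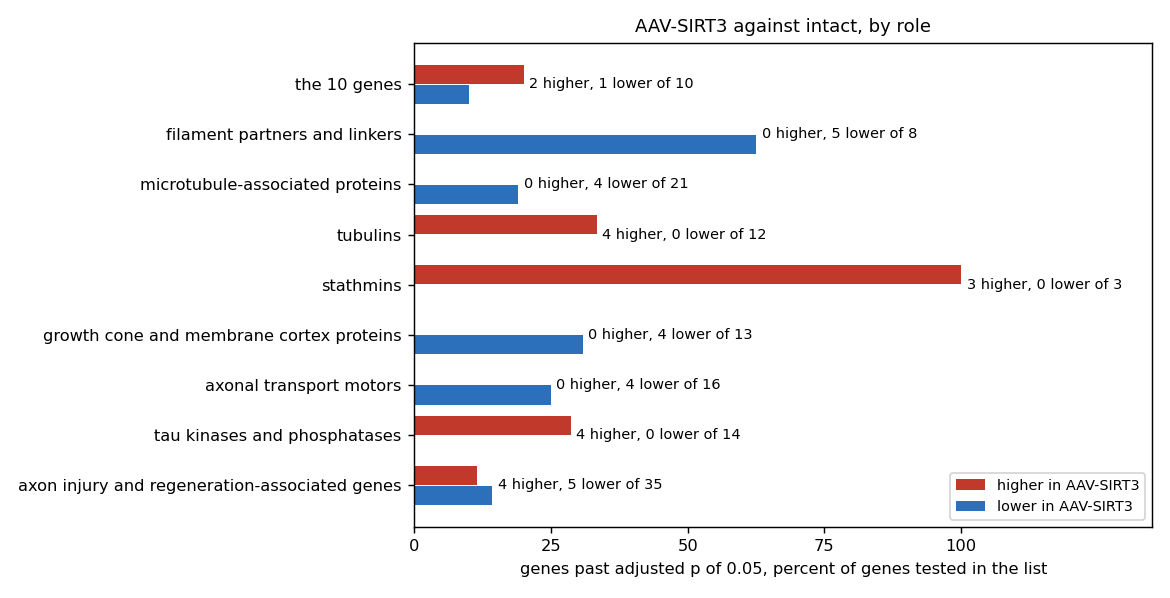
Percent of the genes tested in each role list that passed an adjusted p of 0.05 in limma between AAV-SIRT3 and intact libraries (red higher, blue lower in AAV-SIRT3), with counts beside the bars. Stathmins (3 of 3), tubulins (4 of 12) and tau kinases and phosphatases (4 of 14) have calls on the higher side alone, and filament partners, microtubule-associated proteins, cortex proteins and motors on the lower side alone.

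Length ran alongside these directions. Of the members and list genes that rose between AAV-SIRT3 and intact, the 16 with a known length had a median exon sum of 2.13 kb, and the 23 that fell had 13.5 kb, with 4.66 kb over all listed genes. Among all genes tested the medians were 2.77 kb for those that rose, 6.79 kb for those that fell and 3.78 kb in all. Tubb3 at 1.87 kb and Map2 at 16.4 kb followed this order, and Stmn2 at 5.60 kb was longer than the median of all genes although it rose. With the length trend removed, 1 of the 10 genes (Stmn2) and 25 of the 122 list genes passed in limma, in place of 3 and 37. Over all genes 3198 of the 18824 with a known length passed then, in place of 4214 of 19442, so calls were lost beyond these genes as well.

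**Figure D5:**
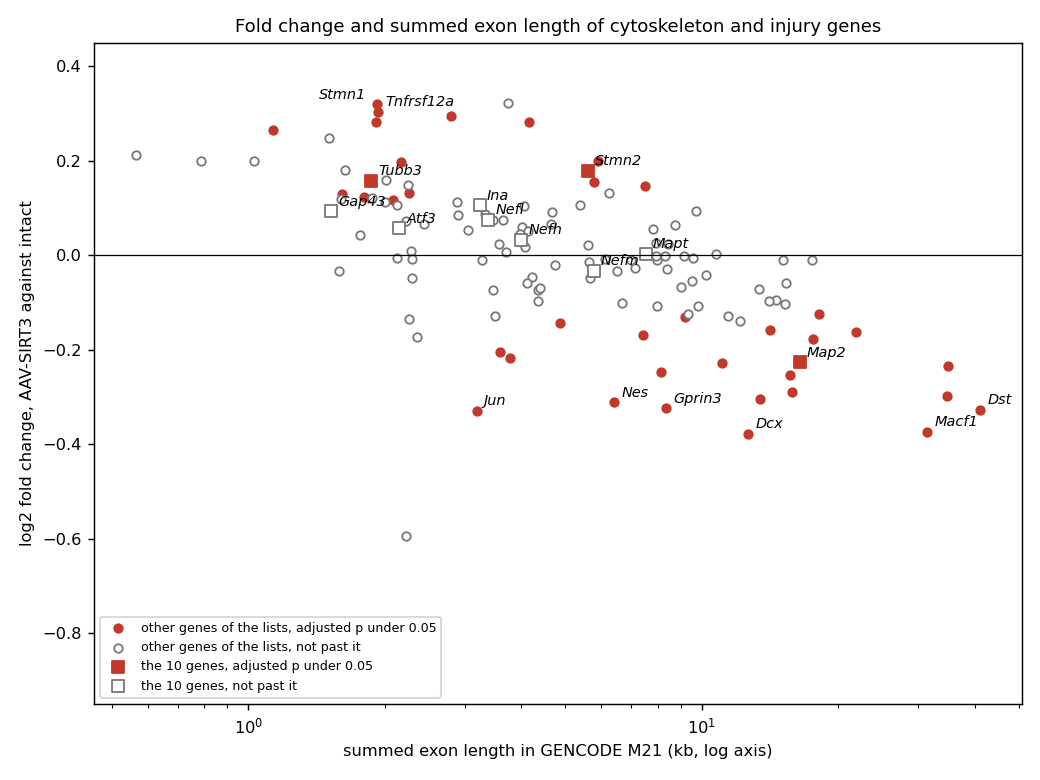
Log2 fold change between AAV-SIRT3 and intact libraries (vertical axis) against the summed exon length of the gene (horizontal log axis, kb) for the 10 genes (squares) and the list genes (circles), filled where the adjusted p is under 0.05. Filled points above 0 have a median length of 2.13 kb and those below 0 of 13.5 kb, with Tubb3 and Map2 at the short and the long side.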

How the data were processed

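Per the labels' protocols, total RNA with an integrity number above 7 gave stranded poly-A libraries, read in pairs. The submitters' processing notes name HISAT2 2.1.0, DESeq2 1.34.0 and mm10. The annotation and strand setting are not given in the sources used here. The deposited table holds 1 signal value per gene and library, and its name says that these are HTSeq counts the authors normalised with DESeq2. Multiplied by a size factor, 100% of the values above 0 were whole reads (tolerance 1e-06). All 18 columns were matched and 0 were left over. A row without a gene name, at most 0.000289% of a library, was left out. Replicates differed by more than sampling noise (chi-square per degree of freedom 8.28 to 37.2 over 45 pairs within groups).

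Fits used limma 3.58.1 in R 4.3.3 on log2(value + 1) for the 19442 genes that reached 10 in 6 or more libraries, with 1 model for the 3 groups (15 residual degrees of freedom), a variance trend and Benjamini-Hochberg adjustment over all genes at 0.05. Exact permutation tests compared ratios, and 100000 within-group permutations tested correlations. The fit was tested on simulated data. For AAV-SIRT3 against intact it recovered 38% of 50 genes planted at a log2 change of 0.25 and 68% of 50 at 0.5. Changes of the size described here can thus be missed. The 200 planted genes were drawn at random from all levels, whereas 4214 genes passed in the real comparison. These shares therefore need not hold for genes of high level. In this 1 simulation 14 false calls beside 140 true ones (9.09% of calls) exceeded the 5% that the adjustment aims for. For AAV-SIRT3 against AAV-GFP there were 5 false calls (3.40% of calls). Alternatives were pseudocounts of 0.5 and 10, other filters, TMM factors, quantile normalisation, edgeR 4.0.16 and DESeq2 1.42.0 on recovered reads, a replicate block, fits limited to 2 groups, marker covariates, removal of the length trend (loess span 0.5) and leaving out each library. Leaving out intact replicates 1, 3 and 5 together was added after seeing the data. All 10 genes passed the filter and are named. Of the role lists, the 8 largest changes that passed and had a mean level of 50 or more are named in each comparison, and for each of the 10 genes up to 3 nearest genes. The members and lists were chosen with earlier results of these data known. A few genes that these rules would name are not reported here.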

Additional observations from a re-analysis of the deposited data

Results flagged for a closer look

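A library was looked at again where its gap to the nearest library of its group of 6 exceeded Dixon's 95% critical share of the group's range. This held for 6 of the 45 groups tested, and chance flags about 1 in 20 groups, or 2.25 of them. Map2 was at 47464 normalised reads in AAV-GFP replicate 2, with 56851 the next, and at 66072 in AAV-SIRT3 replicate 4, with 56529 the next. The ratio of Mapt to Map2 in AAV-SIRT3 replicate 4 was 0.478, with 0.551 the next. AAV-SIRT3 replicate 5 had Nefm at 21347 with 24947 the next, Gap43 at 20447 with 18968 the next, and a ratio of Stmn2 to Gap43 of 1.22 with 1.33 the next. These 6 results come from 3 libraries, so they are not independent of each other.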

How the results depend on the processing

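Of the 417 values of single genes under alternatives other than leaving out a library, 383 kept their direction and side of the threshold, 6 lost and 2 gained a call, and 26 turned in sign, none of them called. Depth limits Atf3 alone among the 10 genes, with 21 to 65 reads. Genes with a mean of at least 50 leave Atf3 out, so it has no value there. Replicate numbers did not pair the libraries, since 1 of 18 same-numbered pairs had r above 0.1 and 1 library correlated best with its own number. With the replicate block 0, 0 and 3 of the 10 genes passed (order AAV-SIRT3 against AAV-GFP, AAV-GFP against intact, AAV-SIRT3 against intact, as throughout), 0, 5 and 33 list genes, and 13, 372 and 3923 genes in all, where 22, 358 and 4214 passed without it.

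Counts that moved by over 1.5 times were as follows. DESeq2 called 309 and 999 genes in the first comparisons, 3 and 15 list genes, and 1 of the 10 genes (Map2, −0.21) in AAV-GFP against intact. Fits of the 2 groups compared called 8 and 199 genes, and 1 list gene in AAV-GFP against intact. All genes above 0 gave 164 genes and 2 list genes there, and the pan-neuronal covariate 11 list genes. The thalamic covariate gave 34 and 1380 genes against intact, 1, 1 and 12 list genes, and 1 of the 10 genes in AAV-SIRT3 against intact (Map2 −0.19 and Tubb3 0.16 not passing). The length trend removed left 1 of the 10 genes there (Map2 −0.07, Tubb3 0.07), where 3198 genes passed in all. Without intact replicates 1, 3 and 5 the counts were 10 and 1686 genes, 0 and 16 list genes, and 1 of the 10 genes in AAV-SIRT3 against intact (Tubb3 0.15, Map2 −0.20).

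Signs turned in AAV-SIRT3 against intact for Mapt with TMM (−0.0039), edgeR (−0.0036), the thalamic covariate (−0.0014), the pan-neuronal covariate (−0.015) and the 3 libraries left out (−0.0060), for Nefm with the thalamic covariate (0.073) and those libraries left out (0.028), for Atf3 with those left out (−0.044) and the length trend removed (−0.020), and for Gap43 with the latter (−0.0018). The pan-neuronal covariate turned Nefl (−0.036) and Nefh (−0.12) there and put Gap43 past the threshold (0.13), and turned Nefl (−0.026), Nefm (−0.081) and Nefh (−0.099) in AAV-SIRT3 against AAV-GFP. Nefh with quantile normalisation (−0.014) and Map2 without the length trend (0.053) turned in that comparison too. In AAV-GFP against intact Nefh turned with edgeR (−0.0051) and the pan-neuronal covariate (−0.017), Nefl with that covariate (−0.010) and without the length trend (−0.0036), Gap43 with that covariate (0.0030) and the libraries left out (0.013), Nefm with the thalamic covariate (0.036), and Mapt (0.0068) and Tubb3 (−0.022) without the length trend.

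Leaving out each library gave 5 to 861, 129 to 686 and 3279 to 4633 genes, 0 to 8, 1 to 11 and 27 to 40 list genes, and 0 to 1, 0 to 1 and 3 to 4 of the 10 genes. The 861 came without AAV-GFP replicate 2, the 5 without AAV-SIRT3 replicate 5, the 686 without AAV-GFP replicate 1 and the 129 without intact replicate 3. The count of genes moved by over 1.5 times without any 1 of AAV-GFP replicates 1 to 6 or AAV-SIRT3 replicate 5 in the first comparison, and of intact replicates 3 to 6 or AAV-GFP replicates 1, 2, 3 and 5 in the second. Signs of values near 0 turned within these ranges. In AAV-SIRT3 against AAV-GFP they were −0.0043 to 0.079 for Nefm, −0.026 to 0.064 for Nefh, −0.066 to 0.015 for Map2 and −0.011 to 0.036 for the log2 ratio of Ina to Nefl. In AAV-GFP against intact they were −0.024 to 0.084 for Nefl, −0.11 to 0.046 for Nefm, −0.034 to 0.12 for Nefh, −0.00076 to 0.047 for Tubb3, −0.033 to 0.027 for Gap43, −0.037 to 0.041 for the log2 ratio of Nefh to Nefl and −0.013 to 0.059 for that of Ina to Nefl. In AAV-SIRT3 against intact they were −0.084 to 0.077 for Nefm, −0.021 to 0.14 for Nefh, −0.013 to 0.017 for Mapt and −0.13 to 0.23 for Atf3.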
